A study of Mus musculus with 4 samples.

Results

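The genes described here carry messages of the insulin-like growth factor (IGF) axis, which is made up of a ligand, its receptors and the proteins that hold the ligand outside the cell. They are Igf1, the receptor genes Igf1r and Insr, and the binding protein genes Igfbp2, Igfbp3, Igfbp4, Igfbp5, Igfbp6 and Igfbp7. Members were all transcript rows of the mRNA values whose gene name was one of these, which gave 34 RefSeq transcripts of 9 genes, out of 75959 transcripts of 21878 genes. The values of a gene are the sum over its transcripts.

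RNA was sequenced from C3H10T1/2, a mouse mesenchymal stem cell line that came from C3H embryos, in 2 groups with 2 samples each. The untreated samples are replicates 1 and 2, and no culture time is listed for them. The 5-AZA samples, replicates 101 and 102, received 20 μM 5-azacytidine for 72 hours and then fresh medium for 21 days. 5-azacytidine (5-AZA) is a cytidine analogue that is incorporated into nucleic acids and lowers DNA methylation. All 4 samples come from 1 cell line, and the labels do not say whether the replicates were separate cultures, so p-values measure the spread between these samples. The comparison asks how the messages of the IGF axis differ between the untreated cells and the cells cultured on after 5-AZA.

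IGF1 and IGF2 are small secreted hormones that act through the IGF1 receptor, a receptor tyrosine kinase related to the insulin receptor. The binding proteins capture IGFs in the extracellular space, lengthen their life and limit, or in some settings promote, their access to the receptor, and proteases such as PAPP-A release the ligand again. IGF signalling through PI3K and Akt is known to promote both the growth and the differentiation of myoblasts, and IGFBP5 is known as a binding protein of differentiating muscle.

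FPKM is the number of fragments of a transcript scaled by its length and by the size of the library, as deposited, so levels can be compared between genes of one sample. The FPKM sums of the mRNAs lay between 328410 and 361664 per sample, and 10298 to 11124 genes were at 1 FPKM or more. Changes are differences of log2(FPKM + 0.1) between the group means from limma, which understate the change of low genes. A gene was called where its p-value, adjusted over the 13199 genes with a mean of at least 0.1 FPKM, was below 0.05 and its change over 2-fold. By this rule 1724 genes (13.1%) were higher in the 5-AZA samples and 174 (1.32%) were lower. After quantile normalization the numbers were 1041 higher and 886 lower, and the median log2 fold change of all genes moved from 0.05 to -0.12. In these bulk samples fewer cells of a type and less RNA per cell cannot be told apart.

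All 9 members passed the limit on low values, Igfbp3 through its 5-AZA samples alone. Of the 9, 5 were called higher and 0 lower, beside the background of 13.1% and 1.32%. The direction of Igfbp3 was fixed by that limit, and over the 8 members without it 4 were called higher and 0 lower. The genes called higher were Igfbp2, Igfbp3, Igfbp4, Igfbp5 and Igfbp6, and Igf1, both receptor genes and Igfbp7 were not called. The median log2 fold change over the 9 members, 3.53, is the value of Igfbp3 itself, and it was 2.61 over the 8 members without Igfbp3 and 0.05 over all genes tested. At any fold, the adjusted p was below the threshold for 6 members with higher values, Igfbp3 among them, and 1 (Igf1) with lower values. This stands beside 18.6% and 5.93% of all genes tested. In every member the values of one group lay beyond both values of the other, which was also found in 36.8% of the genes tested with 5-AZA above and in 25.4% with 5-AZA below.

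**Figure D1:**
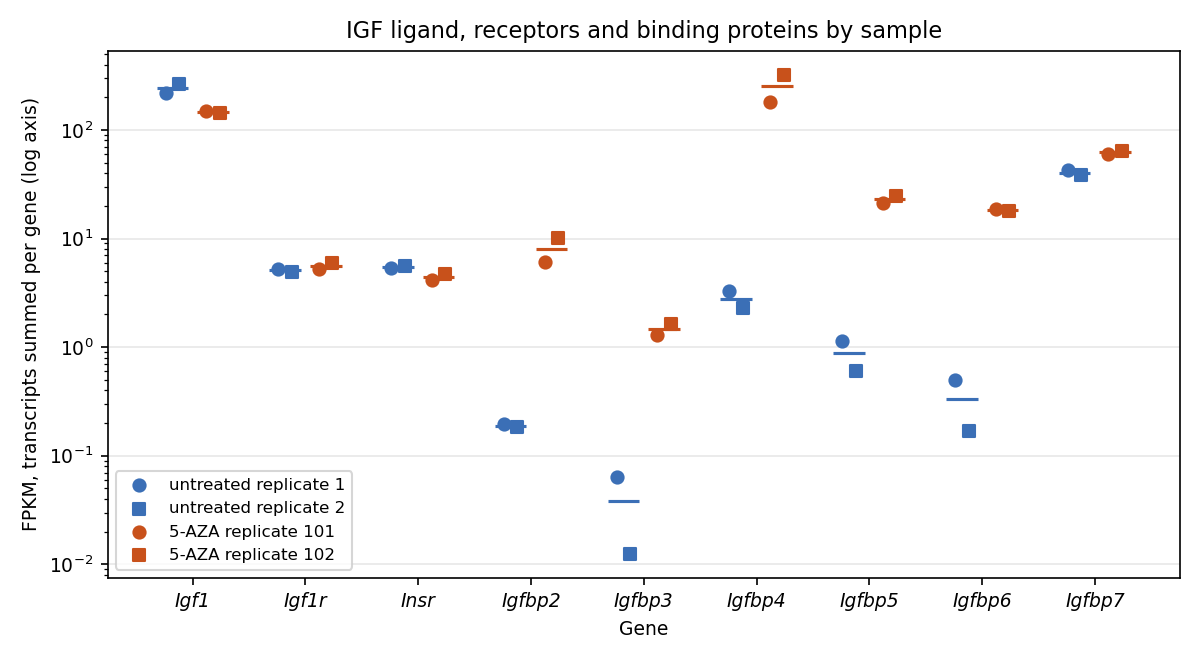
FPKM of each gene, summed over its transcripts, in the 4 samples on a log axis, with a short line at the mean of each group (n = 2). The 5-AZA samples lie far above the untreated samples for Igfbp2 to Igfbp6, while Igf1, Igf1r, Insr and Igfbp7 stay within 2-fold.

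Igf1 encodes the ligand and was the most abundant of the 9 messages in untreated cells. It was listed at 221 and 263 FPKM in untreated replicates 1 and 2 and at 148 and 142 FPKM in 5-AZA replicates 101 and 102. Both 5-AZA values lay below both untreated values. The means were 242 ± 29.5 and 145 ± 4.31 FPKM (SD, n = 2 samples per group), which made a log2 fold change of -0.73 (standard error, SE, 0.11, adjusted p = 0.00149 by limma). The change was smaller than 2-fold, so Igf1 was not called. Without a limit on low values its adjusted p was 0.0620 by limma. Without 5-AZA replicate 101 or 102 its log2 fold change was -0.76 or -0.70, and its adjusted p was not below 0.05. Among the 13199 genes tested its mean level ranked 211 from the top in the untreated and 364 in the 5-AZA samples.

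Igf1 is transcribed into several messages that differ in their leader exons and in the part that encodes the carboxy-terminal extension of the precursor. The file holds 14 transcripts of the gene. NM_001111275.2 (transcript variant 4) carried most of the sum, with 70.7% and 69.0% in the untreated and 73.5% and 69.9% in the 5-AZA samples. NM_010512.5 (variant 1) was listed at 24.05 and 31.99 FPKM in the untreated and at 14.6 and 18.4 FPKM in the 5-AZA samples. The predicted XM_006513257.1 was at 13.0 and 14.2 against 7.004 and 9.40 FPKM. These 3 transcripts had log2 fold changes of -0.69, -0.75 and -0.74 (adjusted p = 0.0421, 0.147 and 0.153 over all transcripts by limma), and none was called. All 3 were lower in both 5-AZA samples, and the share of the leading variant in the gene sum was much alike in the 4 samples.

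Both receptor genes were expressed at a low level in both groups, and neither was called. Igf1r, which encodes the IGF1 receptor, was listed at 5.22 and 4.95 FPKM in the untreated and at 5.23 and 5.98 FPKM in the 5-AZA samples, a log2 fold change of 0.14 with a 95% confidence interval from -0.22 to 0.49 (adjusted p = 0.588 by limma). Insr, which encodes the insulin receptor, was at 5.38 and 5.54 FPKM against 4.13 and 4.70 FPKM, a log2 fold change of -0.30 with an interval from -0.67 to 0.06 (adjusted p = 0.214 by limma). Both intervals end short of a 2-fold change. With samples centred on their medians, Insr had a log2 fold change of -0.41 (adjusted p = 0.0450 by limma). After quantile normalization it was -0.44 (adjusted p = 0.0388 by limma), and Insr was called in neither setting. The sum of both receptor messages was 10.5 ± 0.0822 FPKM in the untreated and 10.02 ± 0.933 FPKM in the 5-AZA samples (SD, n = 2).

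Since the receptors can pair with each other into hybrids, their ratio within a sample was also compared. Igf1r over Insr was 0.969 and 0.893 in untreated replicates 1 and 2 and 1.27 in each 5-AZA sample. The log2 ratio differed by 0.45 between the groups, and the groups did not overlap. An exact permutation test (two-sided) gave p = 0.333, the smallest value that 2 samples against 2 allow. NM_010513.2, the curated transcript of Igf1r, was at 3.33 and 3.10 against 3.39 and 4.60 FPKM, and NM_010568.2 of Insr at 3.03 and 2.79 against 1.73 and 2.66 FPKM. XM_006508701.1 of Insr was at 1.42 and 1.55 against 0.839 and 1.14 FPKM. None of these transcripts was called (adjusted p from 0.565 to 0.648 by limma).

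The receptor loci also gave circular RNAs, whose back-spliced junction reads are a separate readout. Of 4295 circRNAs in the file, 3 had a member as host gene. The circRNA values are RPM, junction reads scaled by the size of the library. The smallest value above 0 in each sample was taken as 2 reads, which was not tested. On this scale 100% of the values were whole multiples of the RPM of 1 read (tolerance 0.01), so they are given as reads here. circRNA_3721 of Insr (chr8:3258383-3258934, minus strand, 552 bases, exonic) had 21 and 35 reads in untreated cells and 33 and 40 reads after 5-AZA. circRNA_3584 of Igf1r (chr7:68003810-68004355, plus strand, 546 bases, exonic) had 7 and 9 reads against 9 and 2 reads. The groups overlapped for both, with log2 fold changes of 0.39 and -0.59 (adjusted p = 0.705 and 0.889 over 1360 circRNAs by limma). circRNA_3585, also of Igf1r (chr7:68189946-68193630), had 2 reads in untreated replicate 2, was listed at 0 in the other samples and was not tested. Of the circRNAs tested with limma, 0% were called higher and 0% lower, while before adjustment 91 were higher and 160 lower with p below 0.05.

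The binding proteins showed the large changes. Igfbp4, whose product mostly restrains IGF action until PAPP-A cleaves it, was listed at 3.28 and 2.27 FPKM in the untreated and at 182 and 322 FPKM in the 5-AZA samples. Both 5-AZA values stood far above the untreated ones, with replicate 102 the higher. It rose 90.8-fold in mean FPKM, with a log2 fold change of 6.42 (SE 0.26, adjusted p = 9.09e-07 by limma). Among the 13199 genes tested this was the rise of rank 48, and the mean level of Igfbp4 moved from rank 8789 to rank 210.

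Igfbp6, whose product prefers IGF2 over IGF1, was listed at 0.502 and 0.171 FPKM in the untreated and at 18.7 and 17.8 FPKM in the 5-AZA samples. The untreated values differed from each other by more than the treated ones did in proportion, and the groups lay far apart. The log2 fold change was 5.51 (SE 0.34, adjusted p = 7.81e-06 by limma).

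Igfbp2, whose product can also bind integrins, was at 0.195 and 0.184 FPKM in the untreated and at 6.03 and 10.1 FPKM in the 5-AZA samples. It rose 42.4-fold in mean FPKM, with a log2 fold change of 4.77 (SE 0.28, adjusted p = 7.04e-06 by limma). The untreated samples shared the gene sum differently between the 2 transcripts of the gene. In untreated replicate 1 nearly all of it was on NM_008342.3, and in replicate 2 NM_001310659.1 was at 0.139 and NM_008342.3 at 0.0451 FPKM. In the 5-AZA samples NM_008342.3 carried the sum, at 6.03 and 10.1 FPKM.

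Igfbp5, which encodes the most conserved of the binding proteins, was at 1.15 and 0.605 FPKM in the untreated and at 21.0 and 24.7 FPKM in the 5-AZA samples. Its log2 fold change was 4.61 (SE 0.26, adjusted p = 5.50e-06 by limma), and the mean rose 26.1-fold. Igfbp3, which encodes the main carrier of IGFs in serum, stayed the lowest of the 9 genes in both groups. It was at 0.0642 and 0.0125 FPKM in the untreated and at 1.30 and 1.65 FPKM in the 5-AZA samples, with a log2 fold change of 3.53 (SE 0.35, adjusted p = 1.25e-04 by limma). The untreated values of Igfbp3 lay below the pseudocount of 0.1 FPKM, which lowers the estimate. Igfbp3 passed the limit on low values through its 5-AZA samples alone, so the direction of its change was fixed by that limit.

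Igfbp7 encodes a related protein that binds IGFs only weakly. It was the leading binding protein message in untreated cells, at 42.5 and 38.5 FPKM, and was at 59.5 and 64.6 FPKM in the 5-AZA samples. Both 5-AZA values lay above both untreated ones, with a log2 fold change of 0.61 and a 95% confidence interval from 0.38 to 0.85 (adjusted p = 0.00261 by limma). The change stayed below 2-fold, so Igfbp7 was not called. Without 5-AZA replicate 101 or 102 its log2 fold change was 0.67 or 0.55, and its adjusted p was not below 0.05.

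**Figure D2:**
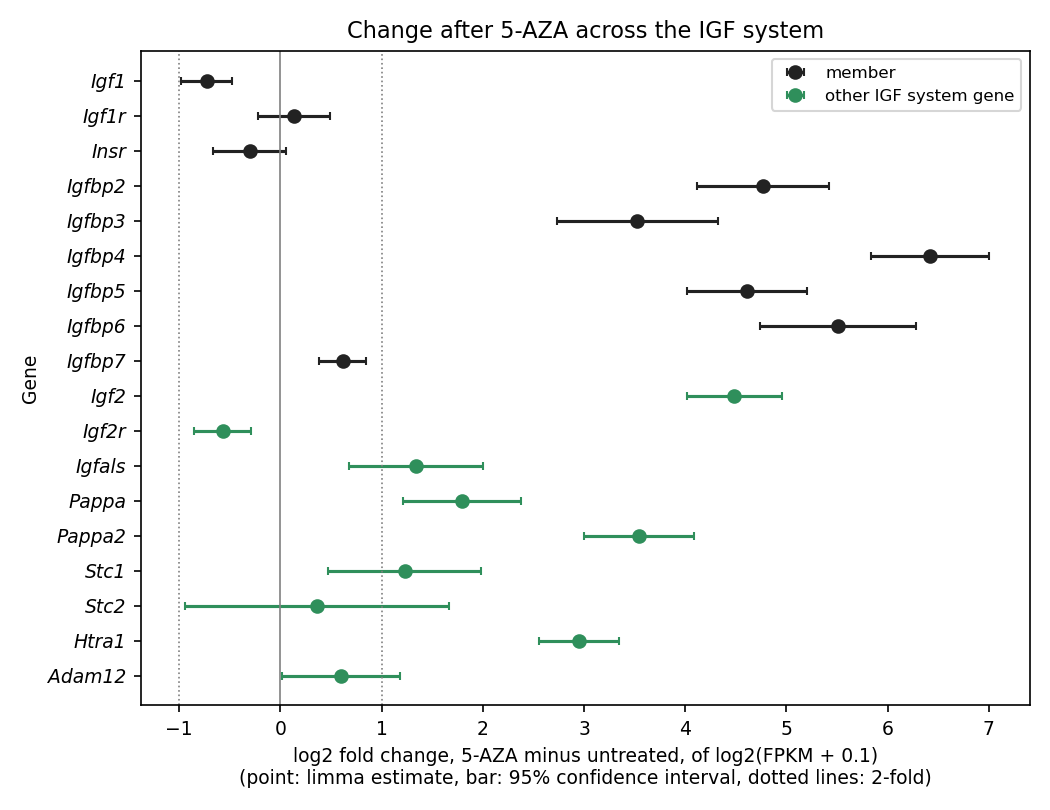
Estimated log2 fold change (5-AZA minus untreated) with its 95% confidence interval for the 9 members, in black, and for the 9 further IGF system genes that were tested, in green. The intervals of Igfbp2 to Igfbp6 lie wholly above the 2-fold line at 1, whereas those of Igf1, Igf1r, Insr and Igfbp7 lie between the lines for 2-fold changes.

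The calls of the binding proteins were the same under every scaling, pseudocount and limit on low values that kept the gene. They depended on having 2 treated samples. Without 5-AZA replicate 101, Igfbp2 and Igfbp4 alone were called, and the adjusted p-values of Igfbp3, Igfbp5 and Igfbp6 were 0.0518, 0.0606 and 0.0729 by limma. Without 5-AZA replicate 102 they were 0.0579, 0.0644 and 0.0722, again with 2 genes called, while all 5 log2 fold changes stayed at 3.37 or more in these fits.

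Of the 34 transcripts 31 were tested, and 4 were called higher and 0 lower, beside 2.10% and 0.262% of all 35557 transcripts tested. The 4 were NM_008342.3 of Igfbp2, NM_010517.3 of Igfbp4, NM_010518.2 of Igfbp5 and NM_008344.3 of Igfbp6 (adjusted p from 0.00157 to 0.0116 by limma). Without either 5-AZA sample no transcript of any gene was called, these 4 included (adjusted p from 0.185 to 0.244 by limma). NM_008343.2 of Igfbp3 had a log2 fold change of 3.46 (adjusted p = 0.0655 by limma), and the predicted transcript XM_011243665.2 of the gene was at 0.430 FPKM in 5-AZA replicate 101 and at 0.00112 FPKM in replicate 102. Igfbp4, Igfbp5 and Igfbp6 have 1 transcript each in the file. NM_008048.3 carried at least 98.4% of the Igfbp7 sum in every sample, and it was not called (adjusted p = 0.0556 by limma).

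With these changes the make-up of the binding protein messages turned over. Together the 6 genes had 47.6 and 41.8 FPKM in the untreated and 289 and 441 FPKM in the 5-AZA samples, 8.16 times as much in the mean. Igfbp7 made up 89.1% and 92.2% of the sum in the untreated samples and 20.6% and 14.6% in the 5-AZA samples. Igfbp4 made up 6.89% and 5.44% in the untreated samples and 63.1% and 73.1% in the 5-AZA samples. Each of the other genes stayed at 7.29% or less in every sample. All of these shares were without overlap between the groups, and the exact permutation test gave its smallest possible p of 0.333 for each.

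Igf1 stood above the summed binding proteins in untreated cells and below them after 5-AZA. The ratio of Igf1 to the sum was 4.64 and 6.28 in untreated replicates 1 and 2, and 0.514 and 0.323 in 5-AZA replicates 101 and 102. With Igf2 added to Igf1 the ratios were 4.66 and 6.30 against 0.606 and 0.381. These are ratios of messages per length and say nothing of protein amounts.

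**Figure D3:**
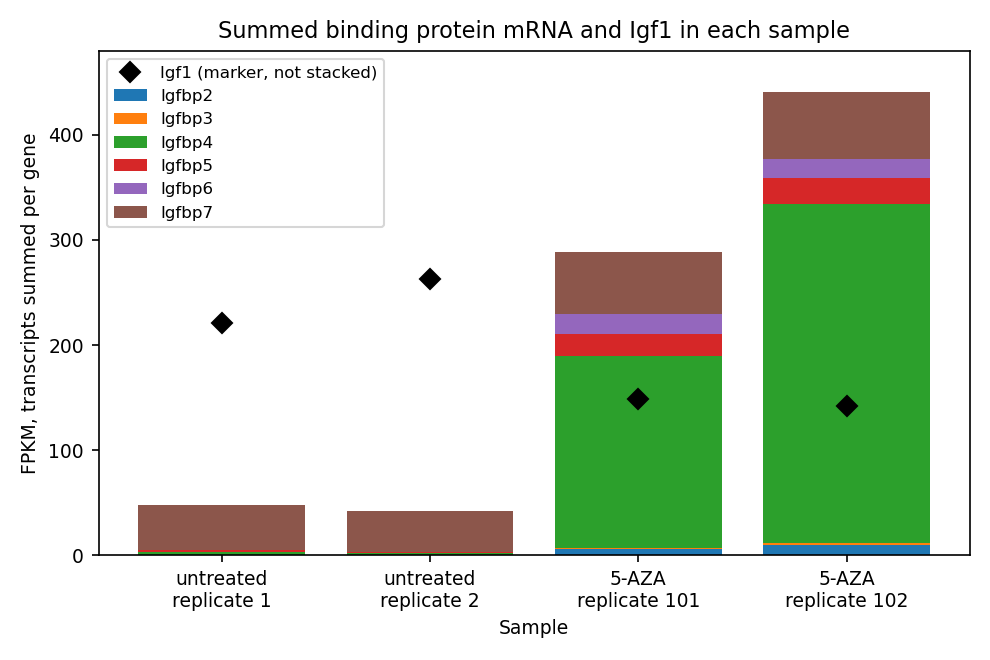
Stacked bars give the FPKM of the 6 binding protein genes in each sample, and the diamond gives the FPKM of Igf1 on the same axis. Igfbp7 fills most of the bar in both untreated samples and Igfbp4 in both 5-AZA samples, and the diamond lies above the bar in the former and inside it in the latter.

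In the untreated samples the order of the mean levels was Igf1, Igfbp7, Insr, Igf1r, Igfbp4, Igfbp5, Igfbp6, Igfbp2 and Igfbp3. Neighbours in this order did not overlap between samples except Igfbp6 and Igfbp2. In the 5-AZA samples the order was Igfbp4, Igf1, Igfbp7, Igfbp5, Igfbp6, Igfbp2, Igf1r, Insr and Igfbp3, and no neighbours overlapped. Igfbp4 and Igf1 were close there, with the lower value of Igfbp4 at 182 and the higher value of Igf1 at 148 FPKM. Both receptor genes thus moved from above to below Igfbp4, Igfbp5, Igfbp6 and Igfbp2 without being called themselves.

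The genes are spread over the genome, with 2 pairs of neighbours among the binding proteins. In the RefSeq annotation of GRCm38.p6, Igfbp2 and Igfbp5 follow each other on chromosome 1, on opposite strands with their 3′ ends facing each other over 5591 bases, and both rose. Igfbp3 lies beside Igfbp1 on chromosome 11, and Igfbp1, a binding protein of liver, was listed at 0 in all 4 samples while Igfbp3 rose. Igfbp4, on the same chromosome, has Top2a and Tns4 as its nearest coding genes. Top2a had a log2 fold change of -0.08 (adjusted p = 0.751 by limma), and Tns4 rose from 0.215 and 0.0614 to 0.871 and 1.36 FPKM (log2 fold change 2.40, adjusted p = 0.00284 by limma). Pmch beside Igf1 and Pgpep1l beside Igf1r were also called higher (log2 fold changes 5.44 and 1.71), next to members that were not called. Both were at 0 in the untreated samples and passed the limit on low values through 5-AZA alone. No other neighbour outside the members was called, Soat2 at 903 bases from Igfbp6 included.

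Methylation of mammalian DNA, which 5-AZA lowers, sits mainly on cytosines of CG dinucleotides, and the 250 bases before the annotated start were read for 8 of the 9 genes from the RefSeq promoter table of GRCm38.p6. Methylation itself was not measured in these samples. The windows of Igfbp3 (chr11:7213924-7214173, minus strand), Igfbp4 (chr11:99040994-99041243, plus strand), Igfbp5 (chr1:72874866-72875115, minus strand) and Igfbp6 (chr15:102143936-102144185, plus strand) are shown for genes that rose, and that of Igfbp7 (chr5:77408046-77408295, minus strand) for the binding protein that was not called. Each is written 5′ to 3′ and ends at the base before the start, with CG dinucleotides in capitals.
Igfbp3: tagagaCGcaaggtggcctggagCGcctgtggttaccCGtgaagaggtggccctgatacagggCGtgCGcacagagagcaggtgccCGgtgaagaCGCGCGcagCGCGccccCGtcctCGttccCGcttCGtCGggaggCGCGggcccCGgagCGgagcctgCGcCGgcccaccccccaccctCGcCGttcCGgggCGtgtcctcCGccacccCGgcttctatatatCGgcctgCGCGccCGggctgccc
Igfbp4: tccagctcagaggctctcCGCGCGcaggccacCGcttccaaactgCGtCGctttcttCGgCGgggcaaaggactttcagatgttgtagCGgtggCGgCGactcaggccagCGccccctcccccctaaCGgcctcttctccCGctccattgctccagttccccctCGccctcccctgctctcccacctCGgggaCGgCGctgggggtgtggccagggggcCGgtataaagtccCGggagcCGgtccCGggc
Igfbp5: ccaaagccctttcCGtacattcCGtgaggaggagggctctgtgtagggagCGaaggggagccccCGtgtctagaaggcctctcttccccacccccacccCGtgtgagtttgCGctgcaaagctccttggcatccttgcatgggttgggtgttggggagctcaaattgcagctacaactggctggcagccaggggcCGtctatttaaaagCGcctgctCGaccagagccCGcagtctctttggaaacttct
Igfbp6: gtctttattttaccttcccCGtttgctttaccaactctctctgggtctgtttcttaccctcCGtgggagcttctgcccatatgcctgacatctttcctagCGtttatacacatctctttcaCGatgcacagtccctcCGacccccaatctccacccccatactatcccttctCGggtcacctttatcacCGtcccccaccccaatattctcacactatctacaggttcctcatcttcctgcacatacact
Igfbp7: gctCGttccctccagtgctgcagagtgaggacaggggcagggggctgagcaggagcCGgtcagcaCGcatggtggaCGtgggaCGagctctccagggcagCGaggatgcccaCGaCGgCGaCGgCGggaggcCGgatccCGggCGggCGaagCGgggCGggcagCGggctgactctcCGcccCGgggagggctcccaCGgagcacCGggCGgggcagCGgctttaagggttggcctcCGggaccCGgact

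The density of CG dinucleotides differed widely among the genes that rose. Their windows held 32 in Igfbp3, 22 in Igfbp4, 10 in Igfbp5 and 7 in Igfbp6, and the 2 listed starts of Igfbp2 had 14 and 11. The windows of genes that were not called held 26 in Igfbp7, 42 in Igf1r and 5 in Igf1. Over all 32851 promoter windows of this length the median was 6, with quartiles of 2 and 16. Windows of the genes tested had a median of 15, with quartiles of 7 and 22, so that Igfbp3 lay above the upper quartile, Igfbp4 and Igfbp6 lay on the quartiles and Igfbp5 lay between them. The median was 6 for genes called higher, 7 for genes called lower and 16 for genes not called.

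Further letter motifs were searched on both strands. TATAAA, the core of the TATA box, was found in Igfbp4, 28 bases before the start, and on the other strand in Igfbp6, and 12.4% of all windows hold it. GGGCGG, the core of the Sp1 site, was found in the first window of Igfbp2, in Igfbp7 and in Igf1r, with 32.7% of all windows holding it, and it overlaps CG dinucleotides. CAGCTG, a form of the E box that myogenic factors bind, was found in Igf1 alone among these windows, with 13.0% of all windows holding it. Among windows of the genes tested, 6.70% hold TATAAA, 55.9% hold GGGCGG and 12.4% hold CAGCTG. A match describes letters and is no sign of binding.

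The remaining genes of the IGF system were read from a list of 12, of which 9 were tested and 6 were called higher and 0 lower, beside 13.1% and 1.32% of all genes. Their median log2 fold change was 1.34. Igf2, the fetal ligand, rose from 1.34 and 0.855 to 26.5 and 25.7 FPKM, a log2 fold change of 4.48 (adjusted p = 1.93e-06 by limma), and went from 0.601% and 0.325% to 15.1% and 15.3% of the summed ligand messages. The sum of Igf1 and Igf2 was 222 and 263 FPKM in the untreated and 175 and 168 FPKM in the 5-AZA samples. Igf2r, which encodes the receptor that clears IGF2, was at 59.7 and 59.5 against 35.7 and 45.1 FPKM and was not called (log2 fold change -0.57, adjusted p = 0.0101 by limma).

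Of the listed genes that act on the binding proteins or carry them, Pappa2, Htra1, Pappa, Stc1 and Igfals were called higher, and Adam12 and Stc2 were not called. Pappa2, a protease that cleaves IGFBP3 and IGFBP5, rose from 0.448 and 0.323 to 5.21 and 5.86 FPKM (log2 fold change 3.55, adjusted p = 1.32e-05 by limma). Htra1, a secreted serine protease that can degrade binding proteins, rose from 3.08 and 2.85 to 20.1 and 27.6 FPKM (log2 fold change 2.95, adjusted p = 6.10e-06 by limma). Pappa, the protease of IGFBP4, rose from 0.416 and 0.405 to 1.63 and 1.71 FPKM (log2 fold change 1.80, adjusted p = 0.00103 by limma). Stc1, which encodes an inhibitor of PAPP-A, was called at 0.218 and 0.148 against 0.511 and 0.606 FPKM (log2 fold change 1.23, adjusted p = 0.0276 by limma). Igfals, which encodes the third part of the serum complex, was called at 0.983 and 1.36 against 2.38 and 3.98 FPKM (log2 fold change 1.34, adjusted p = 0.00962 by limma).

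The calls of Pappa, Stc1 and Igfals depended on the processing. After quantile normalization they were no longer called, with log2 fold changes of 0.97, 0.01 and 0.90. They were also not called with a pseudocount of 1 FPKM (0.92, 0.40 and 0.92) or with curated transcripts only (adjusted p = 0.116, 0.0957 and 0.0834 by limma), nor were Stc1 and Igfals without a limit on low values (0.0699 and 0.141). Stc1 lost its call with any 1 sample left out (adjusted p from 0.0539 to 0.168 by limma), Igfals without either 5-AZA sample (0.101 and 0.183), and Pappa without 5-AZA replicate 102 (0.0516). Stc2 was at 0.28 FPKM or less in every sample. Adam12, a metalloprotease, had a log2 fold change of 0.60 (adjusted p = 0.133 by limma). Insrr was listed at 0 in all samples, as was Igfbp1, and Igfbpl1 reached 0.0258 FPKM in 1 sample.

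Inside the cell, 1 of 20 genes for adaptors and the PI3K and Akt steps was called higher and 0 lower, beside 13.1% and 1.32% of all genes tested. At any fold, 3 of the 20 had an adjusted p below 0.05, the gene called, Pik3r1 (log2 fold change 0.90) and Grb10 (-0.49). This stands beside 18.6% of all genes tested with higher and 5.93% with lower values. Counts this small are not set apart from these backgrounds here. The log2 fold changes of the 20 genes had a median of -0.03 and ran from -0.65 to 2.73. After quantile normalization Irs2 (-1.03) and Pik3cb (-1.33) were called lower. The gene called was Grb14, an adaptor that inhibits the insulin receptor, which rose from 0.733 and 0.558 to 3.94 and 5.85 FPKM (log2 fold change 2.73, adjusted p = 1.07e-04 by limma). Without 5-AZA replicate 102 it was not called (adjusted p = 0.0612 by limma). Of 18 genes downstream of Akt and in the MAP kinase arm, 1 was called higher and 0 lower, beside the same background, and the median was 0.05. This was Trim63, a ubiquitin ligase of muscle, at 0.346 and 0.545 against 1.29 and 2.42 FPKM (log2 fold change 1.81, adjusted p = 0.00578 by limma). Its call ended with a pseudocount of 1 FPKM (log2 fold change 0.96). It also ended without a limit on low values (adjusted p = 0.121 by limma) and after quantile normalization (adjusted p = 0.0703 by limma). Without either 5-AZA sample Trim63 was not called, with log2 fold changes of 2.23 and 1.38. At any fold, 4 of the 18 had an adjusted p below 0.05 in the main fit. They were Trim63, Eif4ebp1 (0.41) and Map2k1 (0.40) with higher and Fbxo32 (-0.48) with lower values.

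**Figure D4:**
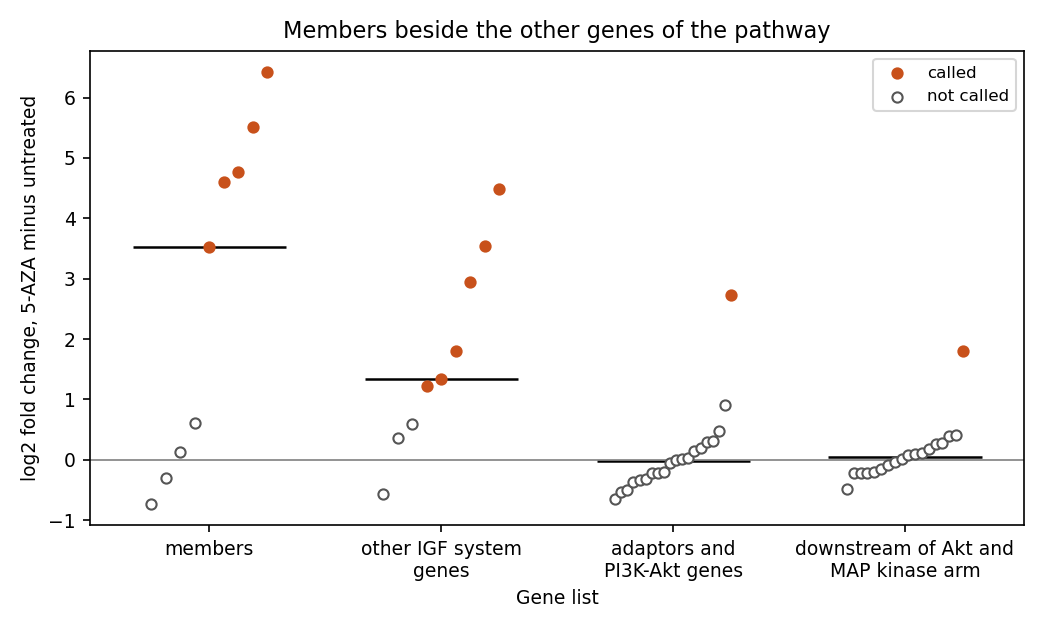
Each point is the log2 fold change (5-AZA minus untreated) of 1 gene, filled where it was called and open where it was not, with a line at the median of each list. The medians were 3.53 for the members (2.61 without Igfbp3), 1.34 for the other IGF system genes, -0.03 for the adaptors and PI3K-Akt genes and 0.05 for the genes downstream.

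Markers of muscle and fat cells rose in the same samples. The counts below stand beside 13.1% of all genes tested called higher and 1.32% called lower. All 9 skeletal muscle markers tested of 10 were called higher. Myod1, Myog, Myh3, Ckm and Mymk passed the limit on low values through their 5-AZA samples alone. The direction of their change was thus fixed by that limit. The summed level of the markers was 1.21 to 1.59 FPKM in the untreated and 761 to 1167 FPKM in the 5-AZA samples, with Myf5 at 0 throughout. Of 8 adipocyte markers 7 were tested and 6 called higher, with sums of 32.9 to 48.6 FPKM against 1133 to 1552 FPKM. Of 7 immune cell markers 3 were tested, and Cd68 was called higher while Lyz2 and Cd14 were not, with sums of 4.52 to 5.79 FPKM against 6.38 to 8.44 FPKM, Adgre1 at 0 in all samples and Ptprc at 0 in 3 of them. Of 5 endothelial markers 4 were tested and 3 called higher, with sums of 0.341 to 0.631 FPKM against 3.45 to 4.03 FPKM and Kdr at 0 in all samples. Cdh5 and Emcn, both called, and Pecam1, not called, passed the limit on low values through their 5-AZA samples alone.

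Of 10 mesenchymal markers 9 were tested, and 1 (Thy1) was called higher and 0 lower, beside 13.1% and 1.32% of all genes tested. Their sums were 3261 to 3317 FPKM against 2108 to 2358 FPKM. The lower sum was mostly Vim, at 2268 and 2406 against 1178 and 1380 FPKM (log2 fold change -0.87, adjusted p = 0.00119 by limma, under 2-fold). The median log2 fold change of the list was 0.30. At any fold, 7 of its genes had an adjusted p below 0.05, beside 18.6% higher and 5.93% lower of all genes tested. Eng, Pdgfra and Ly6a were among these 7 with higher values, and Col1a1 and Col1a2 with lower ones. Vim and Col1a2 were among the abundant messages in all samples, at 1178 FPKM or more and at 420 FPKM or more, while Nt5e was listed at 0 in both untreated samples and Thy1 was below 1 FPKM there. The part of the muscle and fat markers in the rise of the binding proteins was not tested.

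Long noncoding transcripts were listed inside the members' loci as well. Of 29 that overlap a member gene 11 were tested, and 2 were called higher and 0 lower, beside 0.984% and 0.154% of the lncRNAs tested. They lie inside Igfbp4 and Igfbp5, on the strand of the host gene, and how reads were divided between them and the host was not tested. The transcript inside Igfbp5 passed the limit on low values through its 5-AZA samples alone, which fixed its direction. Neither call held with any 1 sample left out.

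For each member the nearest gene by level was sought, by the Euclidean distance between log2(FPKM + 0.1) over the 4 samples. The nearest were Apoe for Igfbp4 (distance 1.04), Des for Igfbp6 (0.894), Iigp1 for Igfbp5 (0.570), Pgam2 for Igfbp2 (0.483) and Lgals12 for Igfbp3 (0.180). For the other members they were Mrps6 for Igf1, Dcaf4 for Igf1r, Acy1 for Insr and Grina for Igfbp7, at distances from 0.0432 to 0.232. The genes that rose lay farther from their nearest neighbour than the others did, apart from Igfbp3.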

How the data were processed

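Stranded libraries were made from RNA of 2 untreated and 2 5-AZA samples after removal of ribosomal RNA. The authors trimmed reads with Trimmomatic and deposited FPKM values of mRNA and lncRNA transcripts, and RPM values of circRNAs. The submitters' processing notes also list HISAT2, Bowtie2 2.2.9, eXpress 1.5.1 and mm9, without roles. The circRNA coordinates in the deposited file were checked against RefSeq genes of GRCm38.p6. All 2356 host transcripts compared overlapped the gene of their name, and 69.9% shared a boundary with it, so coordinates are given as GRCm38.

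Transcripts were summed per gene, and log2(FPKM + 0.1) of genes with a mean of at least 0.1 FPKM was fitted with limma 3.58.1 (lmFit, eBayes with trend) in R 4.3.3, with Benjamini-Hochberg adjustment over all genes. Transcripts and lncRNAs were fitted alike. For circRNAs the pseudocount was 0.0213 RPM and detection in 2 samples was required. Read counts cannot be had from FPKM, and the depth of a single value is therefore unknown. With the smallest circRNA value of a sample taken as 2 reads, the RPM steps correspond to 92903364 to 93920706 reads per sample. The fit was tested on simulated data, with changes planted only in genes above a level that Igfbp2, Igfbp3, Igfbp5 and Igfbp6 did not reach in untreated cells. It therefore cannot say how the fit performs for genes that start so low. The members and lists were chosen with earlier results of these data known, and so was the choice of tests. Named were all members and their 3 leading transcripts of at least 1 FPKM, the genes of the IGF system list, the called genes of the other pathway lists, each member's nearest gene and the circRNAs of members. Neighbouring genes, ratios beyond Igf1r over Insr, markers and lncRNAs were chosen after their values were seen. So were the genes of the other pathway lists that are named without being called. Proteins were not analysed here.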

Additional observations from a re-analysis of the deposited data

Results flagged for a closer look

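The lncRNA values lie outside the mRNA comparisons. They hold 29 transcripts that overlap the span of a member gene, of which 11 reached a mean of 0.1 FPKM, and 2 of these were called higher after 5-AZA, beside 0.984% of the 24075 lncRNAs tested. NONMMUT011946.2 (chr11:99051574-99052641, plus strand, 1 exon) lies inside Igfbp4 on its strand and was at 6.19 and 3.45 FPKM in the untreated and at 161 and 181 FPKM in the 5-AZA samples, a log2 fold change of 5.17 (adjusted p = 0.0118 by limma). NONMMUT001471.2 (chr1:72858066-72859857, minus strand, 1 exon) lies inside Igfbp5 on its strand and was at 5.23 and 2.72 FPKM in the 5-AZA samples and at 3.49e-09 and 2.29e-20 FPKM in the untreated ones, a log2 fold change of 5.28 (adjusted p = 0.0234 by limma). It passed the limit on low values through its 5-AZA samples alone, so a difference between the groups was fixed by that limit. Both have the strand of the host gene, and how reads were divided between them was not tested. Both were flagged because their level in the treated samples lay above that in the untreated samples. With any 1 sample left out no lncRNA of any locus was called, and the log2 fold changes of these 2 ran from 4.76 to 5.74 (adjusted p from 0.155 to 0.363, limma). Also, with a pseudocount of 1 FPKM NONMMUT001471.2 had an adjusted p of 0.0922. These settings for lncRNAs were chosen after seeing the data.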

How the results depend on the processing

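No paired analysis was made, because the labels do not say whether any untreated sample belongs with a treated one. The number of members called higher ranged from 2 to 5 with 1 sample left out, and it was 5 under every other setting except a limit of 1 FPKM, which left Igfbp3 untested and 4 called. Over all settings the log2 fold change ranged from 6.01 to 6.83 for Igfbp4, from 3.86 to 6.08 for Igfbp6 and from 1.25 to 5.18 for Igfbp3, the last with pseudocounts of 1 and 0.01 FPKM. Members called higher by transcript ranged from 0 to 4 with 1 sample left out. Of the other pathway genes 8 were called higher, and 4 with a pseudocount of 1 FPKM, 5 without a limit on low values, 4 after quantile normalization and 5 with curated transcripts only, with a range from 3 to 7 with 1 sample left out. After quantile normalization 2 were called lower, Irs2 and Pik3cb. The difference in the log2 ratio of Igf1r over Insr was 0.45 and became 0.74 with curated transcripts only. Adam12 (-8.41e-04) and Stc2 (-0.76) turned negative after quantile normalization, and circRNA_3584 ranged from -1.32 to 0.15 with 1 sample left out, positive without 5-AZA replicate 102. None of these 3 was called in any setting. Over all genes, 875 were called higher and 86 lower with a pseudocount of 1 FPKM, 845 and 122 with a limit of 1 FPKM, 1179 and 83 without a limit, 1041 and 886 after quantile normalization, 925 and 52 without 5-AZA replicate 101, and 733 and 70 without 5-AZA replicate 102. Curated transcripts only gave 1210 and 134. Of transcripts, 175 and 103 were called higher without untreated replicates 1 and 2, and 0 without either 5-AZA replicate. The cause of these shifts was not tested. With a sample left out, the lone sample of its group is assumed to vary like the other group. With 2 samples a group, the number of samples limits every result.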
